A study of Homo sapiens with 4 samples.

Results

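The genes described here encode the polycomb and trithorax chromatin regulators of HEK293T, an established cell line from human embryonic kidney that expresses SV40 large T antigen. They were taken from a list of 47 gene symbols: the subunits of polycomb repressive complexes 1 and 2 (PRC1 and PRC2), the MLL and SET1 complexes, and the demethylases of lysines 27 and 4 of histone H3. A gene was measured where an array feature was annotated to that symbol and to no other gene. This held for 41 of the 47, out of 18334 genes named in this way, with 85 features and 1 to 6 features per gene. EED, RNF2, CBX8, BAP1, ASH1L and KDM5A had no such feature and were not analysed here. By role, 27 of 31 polycomb genes, 13 of 14 trithorax genes and 1 of the 2 listed KDM5 genes were measured.

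The cells had been transfected with plasmids that expressed either a siRNA against CHD6 or a control siRNA, and RNA was taken at 48 h. There was 1 comparison on 4 two-colour arrays, each of which set a CHD6 siRNA sample directly against a control siRNA sample. On replicates 1 and 3 (the Cy3 arrays) Cy3 marked the CHD6 siRNA sample, and on replicates 2 and 4 (the Hy5 arrays) Hy5 did. The labels give neither the share of cells that took up the plasmid nor whether the replicates were separate cultures, so each p-value measures only the spread between these arrays. The values were ratios within an array, so absolute levels and markers of the cell line could not be read, and less RNA per cell cannot be told apart from fewer cells that express a gene.

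Polycomb and trithorax proteins are opposing systems that keep developmental genes silent or active through cell division. PRC2 methylates lysine 27 of histone H3, PRC1 binds that mark and ubiquitinates histone H2A, and the MLL and SET1 complexes of the trithorax side methylate lysine 4 of histone H3. CHD6, the targeted gene, is an ATP-dependent remodeler whose fly relative Kismet is itself a trithorax group protein, which ties the knockdown to this pathway as background.

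Log ratios are log2 values (an assumed base) and are read as CHD6 siRNA over control. This direction is called likely because every title names the siRNA first; it is not settled. Arrays of opposite dye orientation ran against each other over all 45220 features (Pearson r from -0.84 to -0.68), while arrays of the same orientation correlated at 0.79 and 0.80. Features are not independent replicates. Each gene therefore has 2 values below. The mean log ratio is the average over the 4 arrays. The dye coefficient is the mean of the Hy5 arrays minus the mean of the Cy3 arrays, divided by 2. If the columns were instead Hy5 over Cy3 on every array, the dye coefficient would be the CHD6 siRNA ratio, and if they were Cy3 over Hy5 it would be that ratio with its sign turned. Of the 3 CHD6 features, 1 was low on every array (-1.15 ± 0.24, SD, n = 4) and the others averaged -0.02 and -0.17. Fitted singly, the low feature was called on the log ratio (limma adjusted p = 0.0339), as were 0.0199% of all features. Its dye coefficient of -0.16 was not called (limma adjusted p = 0.195), nor were those of the others (0.015 and -0.14).

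No polycomb or trithorax gene passed the test between CHD6 siRNA and control cells when the deposited direction was used. limma with a dye term called 0 of the 41 genes at an adjusted p under 0.05 (smallest adjusted p = 0.420), against 4 of all 18334 genes (0.0218%). With the intercept alone limma also called 0, as it did over all genes (0%). At an unadjusted p under 0.05 the dye-term fit had 1 gene higher, PCGF6, where 4.97% of all genes were higher, and 1 lower, SETD1A, where 4.4% were lower. The intercept-only fit had 0 members at that level, where all genes gave 1.32%. None of the 41 genes kept 1 sign on all 4 arrays, whereas 3.55% of the genes on the array were above 0 throughout and 3.49% were below 0 throughout.

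The 41 mean log ratios were small, from -0.19 for PHC1 to 0.20 for PCGF6. Each 95% limma interval lay within -0.5 to 0.5, a ratio of less than 1.41-fold either way, as it did for 97.2% of all genes. The lowest bound was -0.44, for SETD1B, and the highest was 0.35, for PCGF6. These intervals cover the spread between arrays and hold for the deposited direction alone. Of the 41, 29 were below 0, 11 above and 1 at 0, while 50.4% of all genes were below 0. The median over the 41 was -0.04 and the median of all genes was -0.0025. This lean is a count over genes chosen as a list, and no test was made of it.

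**Figure D1:**
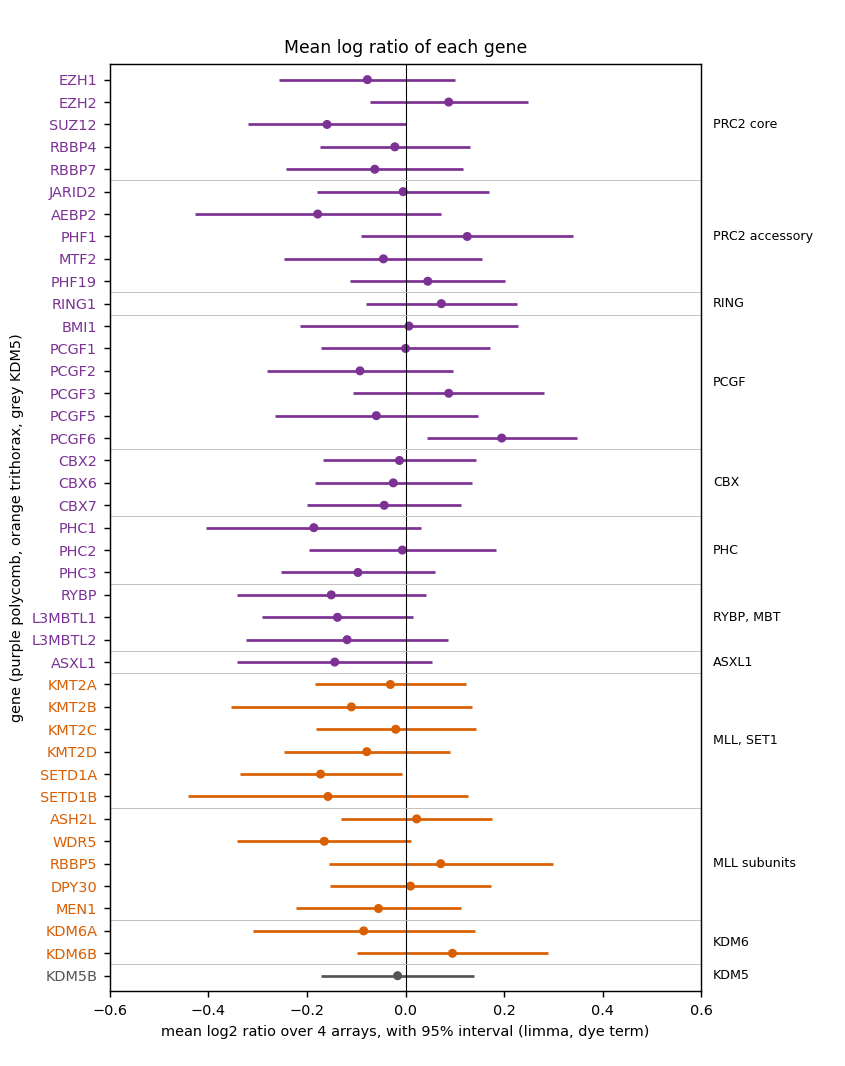
Mean log2 ratio over the 4 arrays for each of the 41 genes (points) with its 95% limma interval from the fit with a dye term (lines), grouped by role from PRC2 at the top to KDM5 at the bottom. The means run from -0.19 to 0.20, and only the intervals of PCGF6 and SETD1A lie wholly on 1 side of 0.

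What separated the arrays was dye orientation. In 35 of the 41 genes the Cy3 and Hy5 arrays did not overlap, 21 with the Hy5 arrays higher and 14 with them lower; over all genes the orientations were apart in 70.8%. The dye coefficient was called for 26 of the 41 genes (limma adjusted p under 0.05), against 44.8% of all genes. Ordinary least squares without limma's moderation of the spread called it for 0 of the 41. The share of all genes called in that fit was not counted, so the 0 is not shown to be particular to the members. Of the 41, 16 were called above 0, where 26.9% of all genes were, and 10 were called below 0, where 18% were. The coefficients ran from -0.86 for SETD1B to 0.75 for PHF19. Their SD over the 41 genes was 0.47, against 0.09 for the mean log ratios, and over all genes the SDs were 0.38 and 0.12. The remaining 6 genes, RBBP7, AEBP2, CBX2, CBX7, KMT2A and WDR5, had overlapping orientations.

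**Figure D2:**
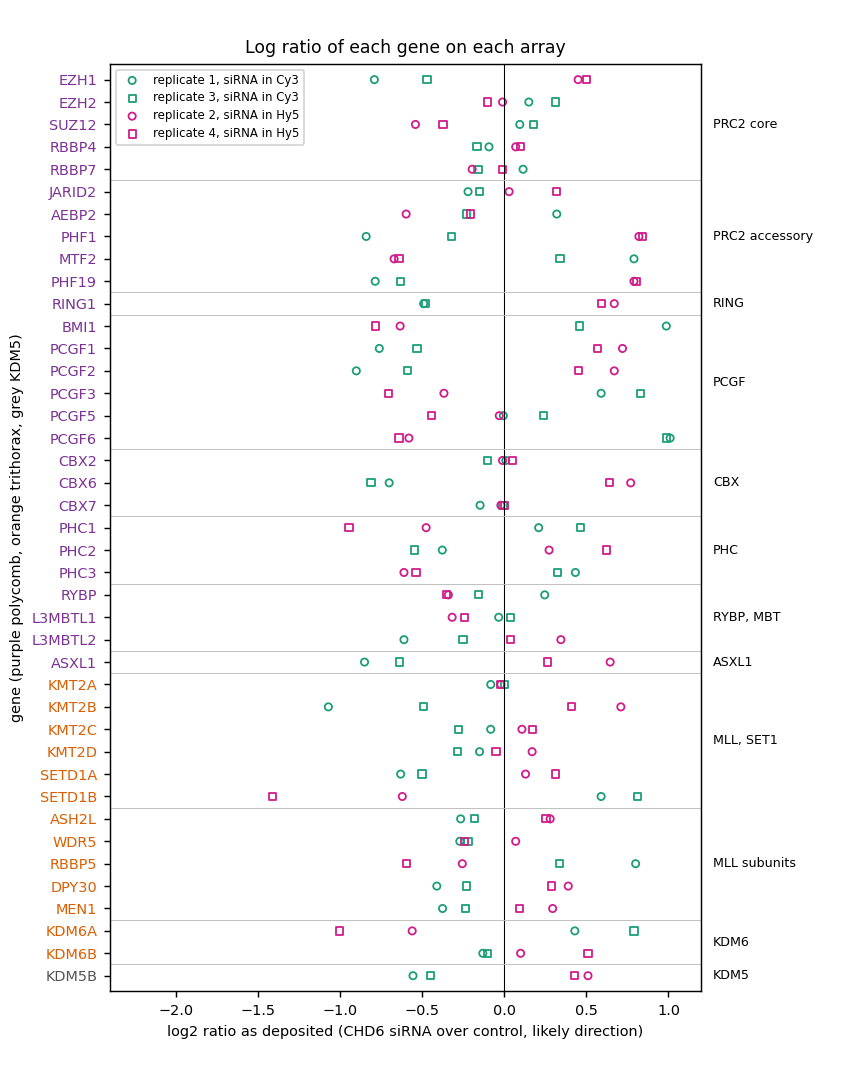
Log2 ratio of each gene on each of the 4 arrays, with green for the Cy3 arrays and magenta for the Hy5 arrays, circles for replicates 1 and 2 and squares for replicates 3 and 4. In 35 of 41 genes the 2 colours fall apart, with green to the left in some genes of a role (EZH1, PCGF1, KMT2B) and to the right in others (MTF2, PCGF6, SETD1B).

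Within the PRC2 core, the catalytic subunits EZH1 and EZH2 leaned opposite ways with dye. EZH2, the main H3 lysine 27 methyltransferase of dividing cells, was at 0.15 and 0.31 on the Cy3 arrays and at -0.01 and -0.10 on the Hy5 arrays. It was higher on the Cy3 arrays, by a small margin. Its mean was 0.09 ± 0.18 (SD, n = 4) and its dye coefficient of -0.14 was not called (limma adjusted p = 0.137). EZH1, the paralog that is the more prominent form in resting cells, was at -0.79 and -0.47 on the Cy3 arrays and at 0.45 and 0.50 on the Hy5 arrays. Its orientations were far apart, so the mean of -0.08 ± 0.65 (SD, n = 4) joins values of both signs, and its dye coefficient was 0.55 (limma adjusted p = 0.000790).

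SUZ12, the scaffold that PRC2 needs for activity, was at 0.10 and 0.18 on the Cy3 arrays and at -0.54 and -0.37 on the Hy5 arrays. Its mean was -0.16 ± 0.35 (SD, n = 4), with a 95% interval from -0.32 to 0.0012 (limma adjusted p = 0.531). The interval reached 0 at its upper end. Of the histone-binding subunits, which PRC2 shares with other chromatin complexes, RBBP4 averaged -0.02 and RBBP7 averaged -0.06, and neither had a called dye coefficient (0.11 and -0.04).

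The accessory subunits of PRC2 steer it to chromatin and set its activity. The polycomb-like proteins, which bind DNA and methylated histone H3, included genes with dye coefficients of both signs. PHF19 was at -0.785 and -0.63 on the Cy3 arrays and at 0.79 and 0.805 on the Hy5 arrays, and its dye coefficient was the highest of all 41 genes. PHF1 was at -0.84 and -0.32 on the Cy3 arrays and at 0.82 and 0.84 on the Hy5 arrays, with a dye coefficient of 0.705 and a mean of 0.125. MTF2, the third polycomb-like gene, went the other way with dye, with a coefficient of -0.61 and a mean of -0.045. The means of all 3 were small beside the distance between their orientations. JARID2, a substrate mimic that stimulates PRC2, averaged -0.005, and AEBP2, its zinc finger partner in the same PRC2 form, averaged -0.18 ± 0.38 (SD, n = 4). Neither had a called dye coefficient.

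PRC1 is built around a RING-type ubiquitin ligase paired with 1 of 6 PCGF proteins. RING1, the ligase that was measured, was at -0.49 and -0.48 on the Cy3 arrays and at 0.67 and 0.59 on the Hy5 arrays, with a mean of 0.07 ± 0.64 (SD, n = 4). The PCGF genes, each of which defines its own form of PRC1, split into groups with opposite dye coefficients. All 6 were measured. The orientations were apart in all 6, and also in 70.8% of all genes. On the dye coefficient 5 of the 6 were called, where 44.8% of all genes were. PCGF1, of the PRC1 form that carries KDM2B and BCOR, was at 0.645, and PCGF2 (MEL18) was at 0.65. BMI1, a PCGF protein of canonical PRC1 and a repressor of the CDKN2A locus, was at -0.715. PCGF3, whose complex also holds casein kinase and AUTS2-family partners, was at -0.62, and PCGF6, the partner of MGA and E2F6, was at -0.805. PCGF5 leaned the same way at -0.18 without a call.

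PCGF6 had the smallest p of the 41 genes. It was at 1.01 and 0.99 on the Cy3 arrays and at -0.58 and -0.64 on the Hy5 arrays. The arrays of each orientation lay close together and the size was larger on the Cy3 side. This left a mean of 0.195 with a 95% interval from 0.04 to 0.35 (limma adjusted p = 0.420, which did not pass). BMI1 was at 0.99 and 0.46 on the Cy3 arrays and at -0.63 and -0.78 on the Hy5 arrays. Its values cancelled to a mean of 0.0067 ± 0.86 (SD, n = 4).

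Polycomb and MLL complexes are both drawn to promoters rich in unmethylated CpG, so the bases before the start of the PCGF genes were set beside their coefficients. The 4 stretches shown are those of the PCGF genes with the lowest (PCGF6 and BMI1) and highest (PCGF1 and PCGF2) dye coefficients, chosen after the values were seen. Each holds the 150 bases before the first RefSeq start listed for the gene (GRCh38.p14), 5′ to 3′ on the gene's strand, with every CG in capitals. PCGF6 is at chr10:103351141-103351290 (minus strand), BMI1 at chr10:22320949-22321098 (plus strand), PCGF1 at chr2:74507696-74507845 (minus strand) and PCGF2 at chr17:38746629-38746778 (minus strand).
PCGF6: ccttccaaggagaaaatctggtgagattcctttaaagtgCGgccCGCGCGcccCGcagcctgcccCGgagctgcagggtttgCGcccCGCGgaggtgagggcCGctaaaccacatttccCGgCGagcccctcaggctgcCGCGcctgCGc
BMI1: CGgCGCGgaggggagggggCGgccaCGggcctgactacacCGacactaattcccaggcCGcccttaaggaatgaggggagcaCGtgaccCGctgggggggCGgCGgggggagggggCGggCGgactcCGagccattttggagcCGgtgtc
PCGF1: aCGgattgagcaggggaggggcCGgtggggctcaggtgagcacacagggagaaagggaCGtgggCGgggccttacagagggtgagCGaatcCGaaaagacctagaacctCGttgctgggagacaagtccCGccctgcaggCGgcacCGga
PCGF2: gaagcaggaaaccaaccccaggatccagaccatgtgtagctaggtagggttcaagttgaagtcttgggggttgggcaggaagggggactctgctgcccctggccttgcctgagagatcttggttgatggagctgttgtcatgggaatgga
These windows held 15 CG in PCGF6 and 15 in BMI1, 10 in PCGF1 and 0 in PCGF2, where the median over the 27305 genes of the RefSeq promoter table was 7 and 88.6% held at least 1. CG reads the same on both strands. In the 250 bases before the start there were 19 CG in PCGF6, 35 in BMI1, 35 in PCGF3, 41 in PCGF5, 12 in PCGF1 and 1 in PCGF2. Over the 37 measured members with a promoter in the table, the CG count in 250 bases (median 24, against 11 over the table) had a Spearman rho of -0.06 with the dye coefficient across genes. For 14 of them the table lists several starts, and the first was used. For the genomic span of the gene, rho with the dye coefficient was -0.36 across the 41 genes and -0.22 across 18303 genes. All points of these correlations come from the same 4 arrays, and genes are not independent replicates. Their part in the dye coefficient was not tested.

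The CBX proteins are the chromodomain subunits of canonical PRC1 that bind methylated H3 lysine 27. CBX6 was at -0.70 and -0.81 on the Cy3 arrays and at 0.77 and 0.64 on the Hy5 arrays, with a dye coefficient of 0.73 and a mean of -0.025. CBX2 lay within 0.10 of 0 on every array (mean -0.01 ± 0.06, SD, n = 4). CBX7 was at -0.15 and -0.0067 on the Cy3 arrays and at -0.02 and 0 on the Hy5 arrays, so its gene mean was flat apart from replicate 1. Its single features, given below, were far from flat.

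The genes of the polyhomeotic proteins, which polymerise through a SAM domain and cluster PRC1, were all called on the dye coefficient, where 44.8% of all genes were. PHC1 was at 0.21 and 0.465 on the Cy3 arrays and at -0.475 and -0.945 on the Hy5 arrays. It had the lowest mean of the 41, at -0.19 ± 0.64 (SD, n = 4; limma adjusted p = 0.595), and its orientations did not overlap. PHC3 had the same sign of dye coefficient (-0.48 for PHC3 and -0.52 for PHC1) and PHC2 the opposite one (0.455).

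RYBP and the MBT-domain genes averaged below 0 without a call. RYBP, the DNA-binding subunit of variant PRC1, averaged -0.15 ± 0.28 (SD, n = 4). L3MBTL1, which compacts chromatin through its MBT repeats, was at -0.03 and 0.04 on the Cy3 arrays and at -0.32 and -0.24 on the Hy5 arrays. Its mean was -0.14 ± 0.17 (SD, n = 4; limma adjusted p = 0.572), carried by the Hy5 arrays. L3MBTL2, of the PCGF6 form of PRC1, averaged -0.12. ASXL1, the cofactor of the BAP1 deubiquitinase that removes ubiquitin from histone H2A, averaged -0.14 with a dye coefficient of 0.60.

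On the trithorax side, all 6 measured H3 lysine 4 methyltransferases had a mean below 0, from -0.17 to -0.02, and none passed. Over all genes 50.4% were below 0. The shared sign held without replicate 2 but not without any other replicate. KMT2B was at 0.035 without replicate 1, KMT2C at 0.0285 without replicate 3 and SETD1B at 0.04 without replicate 4. Read as Hy5 over Cy3, 5 of the 6 would be above 0, where 56.8% of all genes would be. KMT2A (MLL1), the enzyme that maintains HOX gene expression, lay close to 0 on each array, at -0.08 and 0.0017 on the Cy3 arrays and at -0.02 and -0.02 on the Hy5 arrays. KMT2B, its closest paralog, was at -1.07 and -0.49 on the Cy3 arrays and at 0.71 and 0.41 on the Hy5 arrays. KMT2A thus had a dye coefficient of 0.0092 and KMT2B one of 0.67. KMT2C and KMT2D, the enzymes that place monomethyl lysine 4 at enhancers, had means of -0.02 and -0.08. KMT2C was at -0.08 and -0.28 on the Cy3 arrays and at 0.11 and 0.17 on the Hy5 arrays. KMT2D was at -0.15 and -0.285 on the Cy3 arrays and at 0.17 and -0.05 on the Hy5 arrays. Neither dye coefficient was called (0.16 and 0.14).

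SETD1A and SETD1B, the paralogous enzymes of the SET1 complexes that place most trimethyl lysine 4 at promoters, ran in opposite directions with dye. SETD1A was at -0.63 and -0.50 on the Cy3 arrays and at 0.13 and 0.31 on the Hy5 arrays. The Cy3 arrays outweighed the Hy5 arrays, for a mean of -0.17 with a 95% interval from -0.34 to -0.0082 (limma adjusted p = 0.513). SETD1B was at 0.59 and 0.81 on the Cy3 arrays and at -0.62 and -1.41 on the Hy5 arrays. Its replicate 4 was the lowest array value of the 41 genes after averaging features per gene; single features of PCGF3 and BMI1 were lower on that array (-1.98 and -1.54). Its mean was -0.16 ± 1.05 (SD, n = 4; limma adjusted p = 0.750).

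The subunits that all MLL and SET1 complexes share bind and activate the enzymes. WDR5, which docks the complex on the enzyme, was at -0.27 and -0.22 on the Cy3 arrays and at 0.07 and -0.24 on the Hy5 arrays. It was below 0 on all arrays but replicate 2, with a mean of -0.165 ± 0.158 (SD, n = 4) and a 95% interval from -0.34 to 0.01 (limma adjusted p = 0.555). RBBP5 averaged 0.07 with a dye coefficient of -0.50. ASH2L and DPY30 averaged 0.02 and 0.01, with dye coefficients of 0.245 and 0.33. Menin, encoded by MEN1, which links KMT2A and KMT2B to chromatin, averaged -0.055 with a dye coefficient of 0.25. The dye coefficients of RBBP5, ASH2L, DPY30 and MEN1 were called, and that of WDR5 was not, where 44.8% of all genes were called.

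The demethylases showed the same division. KDM6A (UTX), which removes H3 lysine 27 methylation and sits in the KMT2C and KMT2D complexes, was at 0.43 and 0.79 on the Cy3 arrays and at -0.56 and -1.0 on the Hy5 arrays. Its paralog KDM6B (JMJD3), an inducible enzyme, was at -0.13 and -0.10 on the Cy3 arrays and at 0.10 and 0.51 on the Hy5 arrays. Their means were -0.085 and 0.095, and only KDM6A had a called dye coefficient (-0.695; that of KDM6B was 0.21). The difference between these paralogs was not tested. KDM5B, a demethylase of H3 lysine 4 that opposes the MLL and SET1 enzymes, was at -0.555 and -0.45 on the Cy3 arrays and at 0.51 and 0.43 on the Hy5 arrays. Its mean was -0.02 ± 0.56 (SD, n = 4).

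Set side by side as groups, polycomb and trithorax genes lay close together. The polycomb mean was -0.10 and -0.08 on the Cy3 arrays and 0.03 and -0.0068 on the Hy5 arrays, or -0.04 ± 0.06 over all arrays (SD, n = 4). The trithorax mean was -0.13 and -0.045 on the Cy3 arrays and 0.06 and -0.10 on the Hy5 arrays, or -0.05 ± 0.08 (SD, n = 4). Polycomb minus trithorax was 0.03, -0.03, -0.03 and 0.09 on replicates 1 to 4, which is 0.01 ± 0.06 (SD, n = 4). The sign of the difference changed between arrays of the same dye orientation, and its mean was smaller than its SD. Below 0 were 19 of the 27 polycomb and 9 of the 13 trithorax genes, where 50.4% of all genes were. The group medians were -0.04 and -0.055. The dye coefficient was called for 17 of the 27 and 8 of the 13, where it was for 44.8% of all genes. With the columns turned to Hy5 over Cy3, the medians would be 0.03 for polycomb and 0.16 for trithorax genes, and polycomb minus trithorax would be 0.02.

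**Figure D3:**
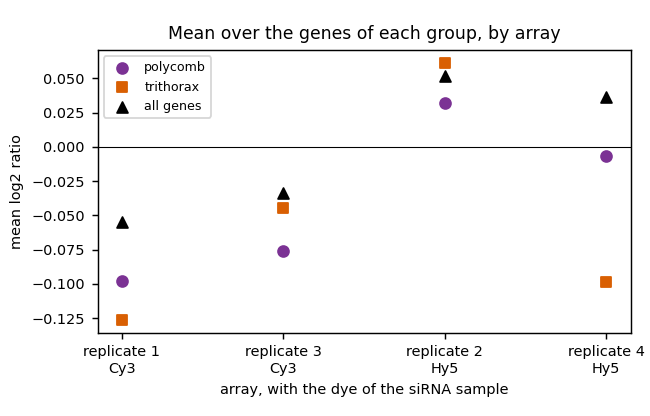
Mean log2 ratio of the 27 polycomb genes (purple circles), the 13 trithorax genes (orange squares) and all 18334 genes (black triangles) on each array, ordered by the dye of the siRNA sample. Polycomb lies above trithorax on replicates 1 and 4 and below it on replicates 2 and 3.

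Many genes were represented by several features, and these often disagreed. Of the 41 genes, 23 had more than 1 feature. In 10 of the 23 the features had dye coefficients of both signs (43.5%), against 47.5% of the 7759 such genes on the array. The median range between a gene's features was 0.52 for the dye coefficient and 0.15 for the mean log ratio, against 0.345 and 0.105 over all such genes. Fitted singly over all 45220 features, 51 of the 85 member features were called on the dye coefficient, where 37.3% of all features were. In CBX7, KMT2A, KMT2C, RBBP4 and RYBP, features of the same gene were called in both directions. The share of all genes with such features was not counted, so this is not shown to be particular to the members.

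RBBP4 gives a plain case, since its features 12120 and 19366 are annotated to the same transcript. Feature 12120 was at 0.55 and 0.36 on the Cy3 arrays and at -0.34 and -0.15 on the Hy5 arrays. Feature 19366 was at -1.0 and -0.83 on the Cy3 arrays and at 0.54 and 0.57 on the Hy5 arrays. The features thus ran against each other, and the gene's dye coefficient of 0.11 averages over them. In CBX7, feature 13769 had a dye coefficient of -0.96 and features 12093 and 33153 had 0.62 and 0.44. In RYBP, feature 38556 was at 0.575 and the others at -0.63 and -0.53, although all 3 are annotated to 1 transcript.

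**Figure D4:**
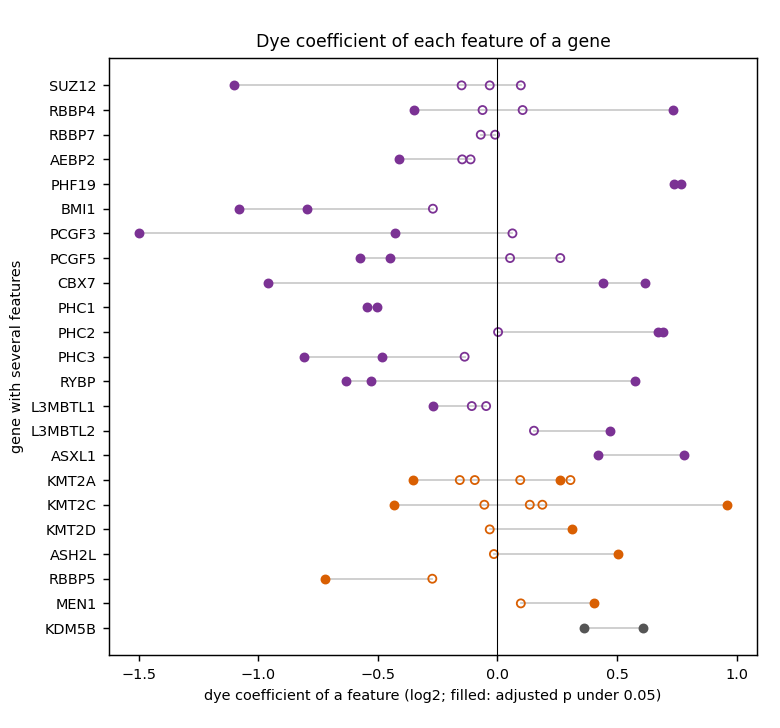
Dye coefficient of each feature of the 23 genes with several features, joined by a grey line per gene; filled points passed an adjusted p under 0.05. Features of CBX7, KMT2A, KMT2C, RBBP4 and RYBP have filled points on both sides of 0, while those of PHF19 and PHC1 lie close together.

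On the mean log ratio, which is the CHD6 siRNA ratio in the likely direction, 0 of the 85 features were called (smallest limma adjusted p = 0.320). Of all features 0.0199% were. An unadjusted p under 0.05 was seen in 8 of the 85, and in 7.33% of all features. Read as Hy5 over Cy3, 51 of the 85 would be called instead, where 37.3% of all features would be. Only 5 features kept 1 sign on all 4 arrays. Below 0 throughout were 3, where 3.3% of all features were. SUZ12 feature 3032 was at -0.50 and -0.13 on the Cy3 arrays and at -0.48 and -0.75 on the Hy5 arrays, a mean of -0.465 ± 0.255 (SD, n = 4; limma adjusted p = 0.320). It was low in both orientations, but SUZ12 features 2036 and 36872 of the same transcript averaged -0.04 and -0.02. AEBP2 feature 5633 averaged -0.36 ± 0.18 (SD, n = 4; limma adjusted p = 0.323), against -0.06 and -0.12 for the gene's others. L3MBTL1 feature 20516 averaged -0.24. Above 0 throughout were 2, where 3.45% of all features were: PCGF3 feature 970 (0.17) and ASH2L feature 2673 (0.075).

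Of 41 further subunits and cofactors listed, 38 were measured and 0 were called with the dye term or with the intercept alone. At an unadjusted p under 0.05 in the dye-term fit, 4 were lower and 3 higher, where 4.4% and 4.97% of all genes were. A mean below 0 was seen in 19 and above 0 in 19, where 50.4% and 48.9% of all genes were. The dye coefficient was above 0 in 21, where it was in 56.8% of all genes. The smallest p was that of PAGR1, a subunit of the KMT2C and KMT2D complexes, at -0.29 and -0.505 on the Cy3 arrays and at -0.125 and -0.345 on the Hy5 arrays. It was the 1 gene of the 38 below 0 on every array, where 3.49% of all genes were. Its mean was -0.32 ± 0.16 (SD, n = 4), with a limma adjusted p = 0.270. PAXIP1, which binds PAGR1 in the same complexes, was at -0.43 on both Cy3 arrays and at 0.03 on both Hy5 arrays, a mean of -0.20 (limma adjusted p = 0.400). WDR82, a subunit of the SET1 complexes, averaged -0.29 (limma adjusted p = 0.326). It was at -0.41 and -0.79 on the Cy3 arrays and at 0.02 and 0.0033 on the Hy5 arrays. E2F6, the DNA-binding factor of PCGF6-type PRC1, averaged 0.21 (limma adjusted p = 0.373). It was at 0.07 and -0.05 on the Cy3 arrays and at 0.41 on both Hy5 arrays. The medians of these 38 genes and of all genes were -0.01 and -0.0025.

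Genes that polycomb complexes are known to silence were taken from a list of 40, of which 37 were measured. Whether polycomb complexes silence them in HEK293T was not tested. None was called with the dye term or with the intercept alone, 24 had a mean above 0 and 13 below, and the median was 0.02; 48.9% of all genes were above 0. Read as Hy5 over Cy3, 22 of the 37 would be above 0, with a median of 0.12, where 56.8% of all genes would be and their median would be 0.03. At an unadjusted p under 0.05 in the dye-term fit, 1 was higher and 0 were lower, where 4.97% and 4.4% of all genes were. CDKN2A, which encodes cell cycle inhibitors and is repressed by BMI1, was at -0.02 and -0.05 on the Cy3 arrays and at 0.26 and 0.68 on the Hy5 arrays, a mean of 0.22 (limma adjusted p = 0.478). It was above 0 on the Hy5 arrays alone. BMP2, a secreted ligand of the TGF-beta superfamily, averaged 0.19 ± 0.23 (SD, n = 4), with 0.53 on replicate 4 and 0 to 0.12 on the others. LHX2, a LIM homeobox factor, averaged 0.175 ± 0.51 (SD, n = 4). It was at -0.17 and -0.31 on the Cy3 arrays and at 0.40 and 0.78 on the Hy5 arrays. CCND2, a G1 cyclin, averaged 0.13 ± 0.08 (SD, n = 4). CCND2 was the 1 gene of the 37 above 0 on all 4 arrays, where 3.55% of all genes were. It was at 0.07 and 0.06 on the Cy3 arrays and at 0.23 and 0.17 on the Hy5 arrays (limma adjusted p = 0.588).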

How the data were processed

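RNA from HEK293T cells was compared on 4 two-colour arrays, from 200 ng of total RNA per sample, per the labels' protocols. The deposited values were log2 ratios (assumed base), 1 column per array, with 45220 features and 0 missing values; the authors' scanner settings, background correction, normalization and column direction: not given in the sources used here. Column medians lay between -0.02 and 0.03. Signal over background is unknown, so its part in the precision, beside that of the number of arrays, was not tested. Features were named through the platform annotation, updated by Entrez identifier to RefSeq (31291 matched; 31332 named 1 gene, 93 several, 13795 unnamed here), and averaged per gene. All 18334 genes were fitted with limma 3.58.1 (R 4.3.3), with an intercept and a dye orientation term, moderated by eBayes; Benjamini-Hochberg adjusted p-values, taken over every gene, were called under 0.05. The fits were tested on simulated data. With 4 arrays an exact two-sided sign-flip test cannot go below 0.125. The members and gene lists were chosen with earlier results of these data known; so was the dye term, after a fit without it had called no gene, and that fit is the first alternative. Per-array values were given for the members with the 6 smallest p, the 3 highest and 3 lowest dye coefficients, measured catalytic subunits and 1-array outliers, and 4 genes were named from each other list by smallest p; RBBP4, CBX7, RYBP, SUZ12 and AEBP2 features were chosen after their values were seen. Promoter sequences came from RefSeq (GRCh38.p14). Over all measured genes, 78.6% had a promoter there, under the 80% set as the minimum, so the promoter comparison was void for that set and made for members alone. No value column was left out.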

Additional observations from a re-analysis of the deposited data

Results flagged for a closer look

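In each of 52 sets of 4 array values (genes and group means), the gap between an extreme array and its neighbour was divided by the range. In 2 sets it passed Dixon's 95% value, where about 2.6 would if each set were drawn from 1 normal population. That does not hold for the 35 of 41 genes whose dye orientations were apart, so 2.6 is not a fair expectation here. Both flagged genes had overlapping orientations. CBX7 was at -0.147 on replicate 1, while its other arrays lay between -0.02 and 0. WDR5 was at 0.07 on replicate 2, while its other arrays lay between -0.27 and -0.22.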

How the results depend on the processing

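Leaving aside the direction of the columns, 0 of the 41 genes passed under any of the 11 other settings tried (limma's smallest adjusted p was 0.103, for AEBP2 with 1 feature per gene), and 448 of 451 gene values moved by less than 1 SD over arrays. The exceptions were RBBP4, CBX7 and KMT2A with 1 feature per gene (-0.18, 0.06 and -0.115). The fits with the intercept alone, without moderation and with robust moderation leave the means unchanged by construction. The SD also holds the split between dye orientations, so a value can change sign and still count as within it. SETD1B (SD 1.05) was at -0.355 without replicate 2 and at 0.04 without replicate 4. Members below 0 numbered 25 to 30 over the 11 settings. Polycomb minus trithorax lay between -0.015 and 0.045 when a replicate was left out. It was 0.01 with KDM5B among the trithorax genes and 0.02 without RBBP4, RBBP7 and ASXL1. The count of all called genes was 0 with the intercept alone and 0 without any 1 replicate, where the lone array of a dye is assumed to vary like the others. It was 8 with feature medians, 10 with 1 feature per gene, and 7 with column medians removed, with quantile normalization or with robust moderation. Without moderation, 0 members had a called dye coefficient, against 26 with it, and the share of all genes without moderation was not counted.

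Turned by dye, 8219 genes and 26 members would be called, with 0 members called on the remaining term. With the Cy3 arrays flipped, 16 members would be below 0, and the polycomb and trithorax medians would be 0.0325 and 0.159. Called members whose sign would turn against the deposited mean were then EZH1 (0.55), BMI1 (-0.715), PCGF2 (0.65), PCGF3 (-0.62), PCGF6 (-0.805), CBX6 (0.73), PHC2 (0.455), L3MBTL2 (0.31), ASXL1 (0.60), KMT2B (0.67), SETD1A (0.39), RBBP5 (-0.50), MEN1 (0.25) and KDM5B (0.49). With the Hy5 arrays flipped they were SUZ12 (0.30), PHF1 (-0.705), MTF2 (0.61), PHF19 (-0.75), RING1 (-0.56), PHC1 (0.52), PHC3 (0.48), SETD1B (0.86), ASH2L (-0.245), DPY30 (-0.33) and KDM6A (0.695). PCGF1, at 0 as deposited, would be called at 0.645 or -0.645. Apart from this change of sign, the cause was not tested. The Cy3 flip, the fit of single features and the count below 0 were added after the data were seen. No paired analysis was possible because the ratios form 1 group; each is already the paired difference within an array.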
